A study of Mus musculus with 4 samples.

Results

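Bone morphogenetic protein (Bmp) signalling was followed through 10 genes: the ligands Bmp2, Bmp4, Bmp5 and Bmp7, the secreted antagonists Nog, Chrd, Fst and Grem1, and the target genes Id1 and Id3. These are the rows of the count matrices that carry those gene symbols, 10 of 31055 rows, and all 10 were measured in every library. The cells came from the caudal part of mouse embryos at embryonic day 8.5, either wild-type (WT) or Grhl3-null, from intercrosses of Grhl3+/- mice, so the null embryos lacked Grhl3 in every tissue and all embryos shared the C57BL/6 background. Cells of 5 WT embryos were pooled, cells of 3 Grhl3-null embryos were pooled, and each pool was run as 2 droplet reactions, which gave 2 libraries per genotype. A test between the genotypes therefore compares 2 pools of cells. Its p-values measure the spread between reactions and not that between embryos.

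Bmp ligands are secreted dimers that bind type I and type II receptor kinases, which phosphorylate Smad proteins that enter the nucleus and switch on targets such as the Id genes. Noggin (Nog), chordin (Chrd), follistatin (Fst) and gremlin (Grem1) bind ligands outside the cell and keep them from their receptors, and follistatin is best known for binding activin. In the closing neural tube, Bmps from the surface ectoderm and dorsal midline set dorsal neural fates, antagonists from the notochord and the neural folds limit them, and Grhl3 encodes a transcription factor of the surface ectoderm that is needed for closure of the spinal neural tube.

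In the mm10 annotation, chromosome 2 holds Bmp2 at chr2:133552159-133562885, Bmp7 at chr2:172868012-172940321, Grem1 at chr2:113746164-113758646 and Id1 at chr2:152736251-152737410. Bmp4 lies at chr14:46383520-46390669 and Bmp5 at chr9:75775364-75900310. Nog lies at chr11:89300638-89302332, Chrd at chr16:20733127-20742384, Fst at chr13:114452290-114458951 and Id3 at chr4:136143497-136145755. Bmp4, Chrd and Fst overlap genes of the opposite strand, and Bmp5 overlaps Gm47723 of the same strand, so reads of Bmp5 could be shared with that gene. The promoter windows below, 250 bases before to 50 bases after the RefSeq start, are those of the members with a window that were called higher in the dorsal than in the ventral neuroepithelium, as described further on. RefSeq windows on GRCm38.p6 matched 5 of the 10 members (Grem1, Id3, Bmp5, Bmp4 and Chrd). The Id3 window lies wholly inside the Id3 span given above. It therefore holds none of the bases before the annotated start of Id3, and a missing motif there says nothing about those bases. Capitals mark GGCGCC, the letters bound by Smad1 and Smad5.
Grem1, chr2:113758599-113758898, minus strand: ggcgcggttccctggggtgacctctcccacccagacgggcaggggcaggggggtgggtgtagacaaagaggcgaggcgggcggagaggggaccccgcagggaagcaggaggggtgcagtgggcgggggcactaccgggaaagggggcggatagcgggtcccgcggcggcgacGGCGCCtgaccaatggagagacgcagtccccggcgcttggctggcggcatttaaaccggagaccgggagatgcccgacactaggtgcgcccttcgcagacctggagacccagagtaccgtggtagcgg
Bmp5, chr9:75775115-75775414, plus strand: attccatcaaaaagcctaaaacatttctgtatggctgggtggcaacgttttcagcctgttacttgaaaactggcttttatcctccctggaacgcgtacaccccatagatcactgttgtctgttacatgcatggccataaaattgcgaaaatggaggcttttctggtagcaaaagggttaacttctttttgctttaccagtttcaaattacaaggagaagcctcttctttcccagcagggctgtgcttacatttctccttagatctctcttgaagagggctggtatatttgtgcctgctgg
Id3, chr4:136143572-136143871, plus strand: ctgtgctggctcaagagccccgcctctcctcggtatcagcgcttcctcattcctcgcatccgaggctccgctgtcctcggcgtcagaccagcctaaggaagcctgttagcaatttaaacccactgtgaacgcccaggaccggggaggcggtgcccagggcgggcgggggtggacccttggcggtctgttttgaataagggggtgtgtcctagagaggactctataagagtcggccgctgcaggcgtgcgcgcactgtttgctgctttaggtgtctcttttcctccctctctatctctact
GGCGCC was found in the Grem1 window at position -78 from the start and in the Chrd window at -203, and 11.9% of 32851 windows of this length hold it. It was not found in the Bmp5, Id3 and Bmp4 windows. CANNTG, the E-box, was found in the Bmp4 window at 3 positions and in the Chrd window at 1, and 72.3% of all windows hold it. AACCNGTT, the letters bound by grainyhead proteins, was in none of the 5 windows and in 2.09% of all windows. All motifs were searched on both strands, and a match describes letters only.

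After filtering, 20198 cells remained, 5459 and 5116 in the WT libraries and 4842 and 4781 in the Grhl3-null libraries, with 209833527 to 226723903 UMIs (unique molecular identifiers, counted molecules) per library. Among these cells, 36 barcodes were found in more than 1 library. Grhl3 was counted 878 and 803 times in the WT libraries and 12 and 14 times in the Grhl3-null libraries. Clustering gave 16 classes, named from marker genes of these cell types, so that a class name is short for cells resembling that type. A cluster of the lateral plate group with a median of 16245 UMIs per cell is called the shallow class. The pre-somitic class held 492 and 480 WT cells against 4 and 3 Grhl3-null cells, and the primordial germ cell class held 5 to 26 cells per library, so neither was tested. The pools also differed in sex. In the neuroepithelium 423 and 371 WT cells were female and 56 and 68 male, whereas 67 and 67 Grhl3-null cells were female and 406 and 454 male. The male and the female cells of a pool come from different embryos, so sex and embryo cannot be told apart. Each genotype result of a member in a whole class was also computed in male and in female cells where enough cells allowed it.

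**Figure D1:**
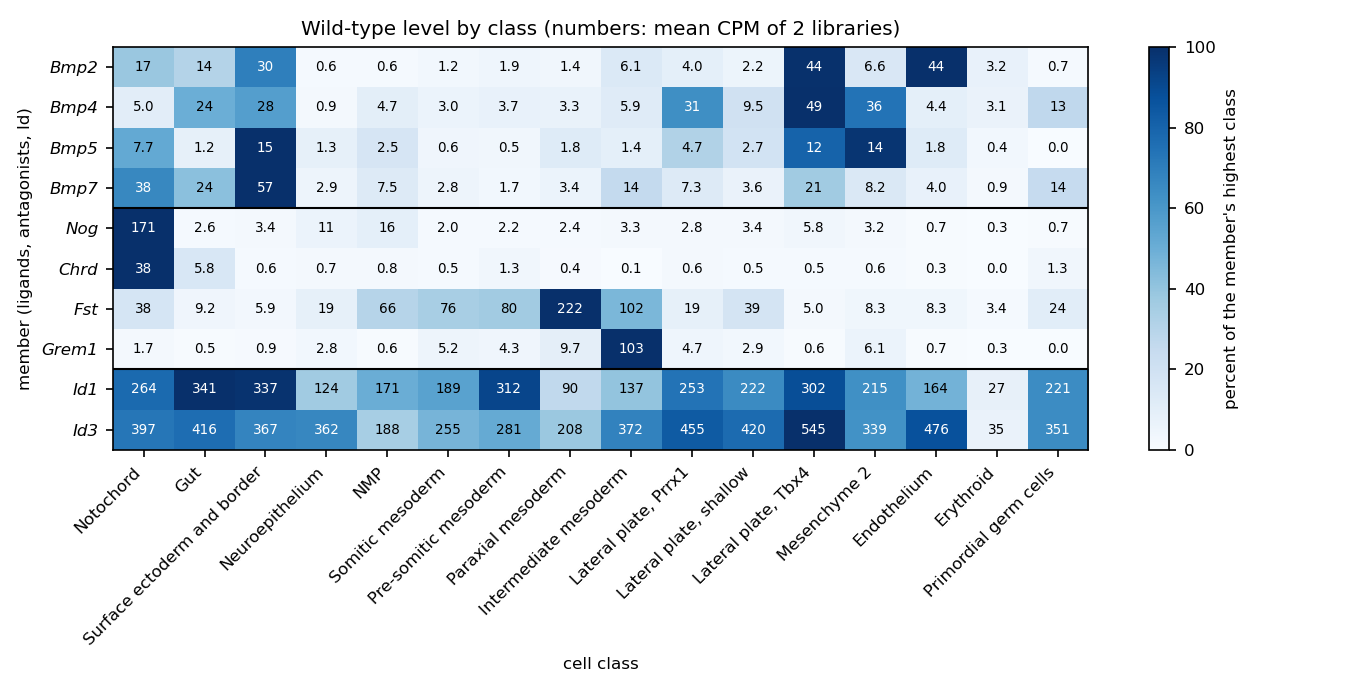
Mean level of each member (rows) in each class (columns) over the 2 WT libraries, in CPM (printed), coloured by the percent of that member's highest class. Nog and Chrd peak in the notochord, Grem1 in the intermediate mesoderm and Fst in the paraxial mesoderm, whereas Id1 and Id3 are spread over all classes but the erythroid class.

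The ligands were highest in the surface ectoderm, lateral plate, Mesenchyme 2 and endothelium classes, and Bmp2 and Bmp4 were lowest in the neuroepithelium. Levels are in CPM, the UMIs of a gene divided by all UMIs of the class in that library on the usual CPM scale, given as mean ± SD of the 2 WT libraries, and since classes were clustered on all genes they are a description. Bmp2 was highest in the endothelium at 43.8 ± 1.36 CPM and in the Tbx4-expressing lateral plate class at 43.6 ± 12.4 CPM, whose libraries (34.8 and 52.3 CPM) enclosed those of the endothelium. The surface ectoderm and neural plate border class followed at 30.4 ± 1.10 CPM. Bmp4 was highest in the Tbx4 lateral plate class, at 45.6 and 51.5 CPM, before Mesenchyme 2 at 35.9 ± 5.21 CPM, the Prrx1-expressing lateral plate class at 30.8 ± 2.00 CPM and the surface ectoderm class at 27.7 ± 5.10 CPM. Neighbours among the last 3 overlapped between libraries. Bmp5 stood at 14.8 ± 0.554 CPM in the surface ectoderm class and at 14.5 ± 0.155 CPM in Mesenchyme 2, which overlapped. Bmp7 was highest in the surface ectoderm class, at 56.0 and 58.0 CPM, before the notochord at 37.6 ± 0.597 CPM and the gut at 23.9 ± 2.21 CPM, with no overlap between the first 3 classes. In the neuroepithelium the 4 ligands stood between 0.566 and 2.89 CPM.

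Each antagonist had its own peak. Nog reached 183 and 159 CPM in the notochord, and the next class, the neuromesodermal progenitors (NMPs, which give rise to spinal cord and paraxial mesoderm), stood at 15.6 ± 1.56 CPM. Chrd was also highest in the notochord, at 43.5 and 33.0 CPM, followed by the gut at 5.83 ± 0.283 CPM, and no other class was above 1.34 CPM. Fst was highest in the paraxial mesoderm, at 237 and 206 CPM, before the intermediate mesoderm at 102 ± 7.94 CPM and the pre-somitic and somitic classes at 80.5 ± 6.09 and 76.1 ± 1.46 CPM, which overlapped. Grem1 was highest in the intermediate mesoderm, at 104 and 102 CPM, and the next class, the paraxial mesoderm, stood at 9.75 ± 2.70 CPM. Of the notochord antagonists, Nog and Chrd had the highest correlation of any pair of members over the 16 classes, r = 0.856, where all classes come from the same libraries.

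The Id genes, which encode helix-loop-helix proteins that hold back bHLH transcription factors, were found in all classes. Id1 stood at 341 ± 23.9 CPM in the gut and 337 ± 11.1 CPM in the surface ectoderm class, which overlapped, and at 90.4 ± 5.34 CPM in the paraxial mesoderm. Id3 was highest in the Tbx4 lateral plate class at 545 ± 37.3 CPM, before the endothelium at 476 ± 11 CPM, and stood at 188 ± 10.0 CPM in the NMPs. Both were lowest in the erythroid class, Id1 at 26.9 ± 6.18 CPM and Id3 at 35.1 ± 8.10 CPM.

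Shares of cells with a UMI were taken after thinning every cell to 7500 UMIs, with 95% Clopper-Pearson intervals that cover counting error only. Each is given for the member's highest WT class. Beside it stands the endothelial or the erythroid class, whichever had the lower WT share of that member. Nog was seen in 39 of 65 and 47 of 77 WT notochord cells, 60% (47.1 to 72.0) and 61.0% (49.2 to 72.0), and in 0 of 68 and 0 of 50 WT erythroid cells, which allows shares of up to 5.28% and 7.11%. The notochord cells had medians of 28690 and 35116 UMIs and the erythroid cells of 40083 and 36345.5. Fst was seen in 60% (55.6 to 64.2) and 56.8% (52.0 to 61.5) of WT paraxial cells against 3.31% and 1.28% of endothelial cells. Grem1 was seen in 41.1% (31.9 to 50.8) and 40.2% (30.6 to 50.4) of WT intermediate mesoderm cells against 0 of 151 and 0 of 156 endothelial cells, which allows shares of up to 2.41% and 2.34%. Since both classes were picked by their values in these data, the gap between them is a description and no test. Bmp5 was seen in 11.3% (7.67 to 16) and 10.6% (6.87 to 15.5) of WT surface ectoderm cells against 0% and 1.92% of endothelial cells. Id3 had a UMI in 95.0% and 85.2% of WT Tbx4 lateral plate cells and in 13.2% and 8.00% of WT erythroid cells. Before thinning, 1 erythroid cell held 65 of the 81 Id3 UMIs of 1 WT library, and 1 cell held 22 of 90 in the other.

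The genes with the most similar pattern were taken by Pearson's r of log2(CPM + 5) over the 16 WT classes, among genes with at least 20 CPM in a class. Chrd was followed most closely, by Fgg (r = 0.993), Fam183b (0.987) and Vtn (0.984), and Nog by Pcp4l1 (0.954), Pifo (0.920) and Cfap126 (0.916). The ligands had Chmp3 (0.906) for Bmp2, Tbx3 (0.899) for Bmp4, Scube3 (0.846) for Bmp5 and Frem2 (0.911) for Bmp7 as nearest genes. For Fst it was Sms (0.868), for Grem1 Gfra1 (0.912), for Id1 Plp2 (0.923) and for Id3 Stard3nl (0.932). The next genes were Pdlim1 and S100a10 for Bmp2, Prdm6 and Spin2c for Bmp4, Aaed1 and Snai2 for Bmp5, Cdh3 and Bcam for Bmp7, Fgf18 and Dll3 for Fst, Gpx6 and Cldn11 for Grem1, Myl12b and Lrfn4 for Id1, and Nelfb and Spns1 for Id3.

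Over all cells, Fst fell (61.0 and 58.6 against 46.6 and 44.2 CPM, -0.43, SE 0.03) and Bmp5 (0.73, SE 0.06), Bmp2 (0.48, SE 0.04) and Grem1 (0.41, SE 0.05) rose most, as described by class below. The fall of Fst was in female cells (-2.16), and in male cells it was higher in Grhl3-null (0.74, adjusted p = 3.3e-06). Bmp5 was higher in both (0.97 in female and 0.54 in male cells), Bmp2 gave 0.87 in female and 0.17 in male cells (adjusted p = 0.069), and Grem1 gave -0.05 in female and 0.49 in male cells. Between the genotypes, members differed in most classes, and more often upward in Grhl3-null. A member was called with an adjusted p under 0.05 in edgeR's quasi-likelihood test on UMIs summed per class and library, adjusted over all genes tested in the class. Over the 14 tested classes, 41 of 116 member and class pairs were called, 33 higher and 8 lower in Grhl3-null. In all cells together 8 of 10 members were called, 7 higher and 1 lower, where 35.5% of all tested genes were called. In the neuroepithelium 7 of 10 were called, all higher, against 22.8% of all genes tested there, and the members' median log2 fold change was 0.70 against 0.01 over all genes. In the surface ectoderm class 4 of 9 were called, all higher (15.3% of all genes), in Mesenchyme 2 4 of 9, all higher (20.9%), and in the Prrx1 lateral plate class 5 of 10, 4 of them higher (10.5%). In the NMPs 4 of 10 were called, 3 higher (17.7%), in the paraxial mesoderm 4 of 10, 3 higher (21.7%), and in the somitic mesoderm 3 of 9, 2 higher (12.3%). In the gut 3 of 9 were called, 1 higher (19.5%), in the intermediate mesoderm 3 of 8, 2 higher (2.87%), and in the notochord 2 of 10, 1 higher (3.52%). The Tbx4 lateral plate class had 1 of 8 (3.32%) and the shallow lateral plate class 1 of 5 (4.2%), both higher. In the endothelium 0 of 7 (0.67%) and in the erythroid class 0 of 2 (0.443%) were called by edgeR. The share of members called was above that of all genes in each class with a call, on counts of 5 to 10 members, and was not tested. In the shallow, Tbx4, intermediate mesoderm and notochord classes 1 call was enough for this, so the outcome there was fixed beforehand. The members were also chosen with earlier results of these data known. Of the 41 calls, 21 were lost without 1 of the 4 libraries and 18 with DESeq2, where a further 3 had no adjusted p.

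**Figure D2:**
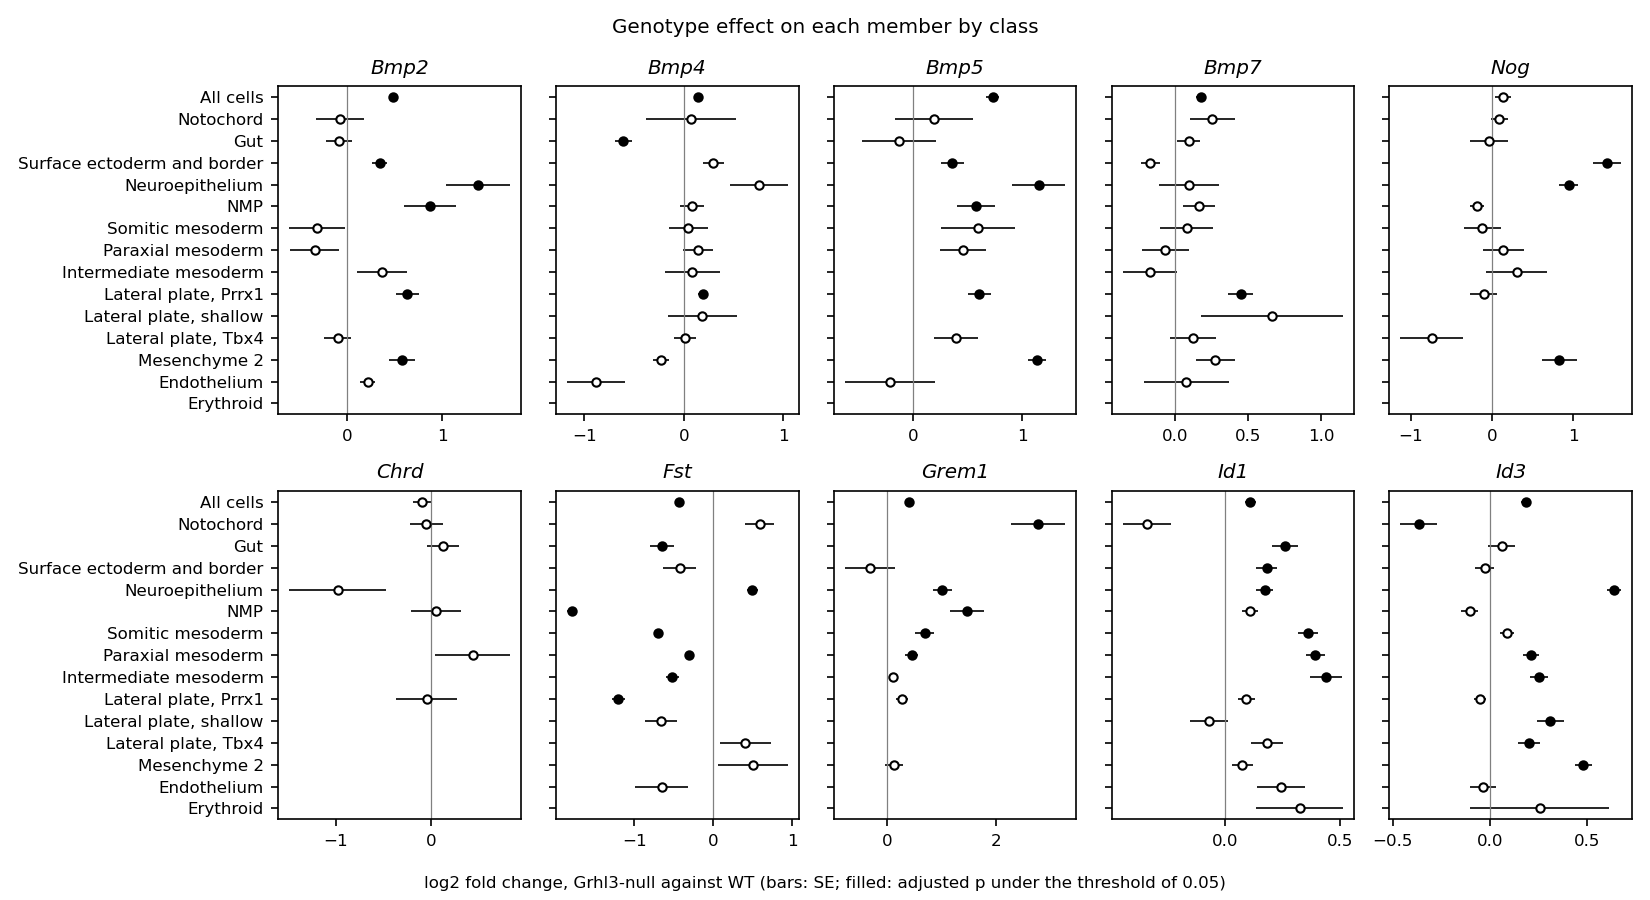
Log2 fold change of each member, Grhl3-null against WT, in all cells and in each tested class (vertical axis), 1 panel per member with its own horizontal scale. Bars are standard errors and filled points passed the adjusted p of 0.05. Fst is lower in 6 classes and higher in the neuroepithelium, and the filled points of Bmp2, Bmp5, Grem1 and Id1 all lie to the right of 0.

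In the neuroepithelium, the future spinal cord, 3 antagonists, 2 ligands and both Id genes were higher in the Grhl3-null libraries. Marker lists of other tissues also differed in this class. The summed level of 8 visceral endoderm genes was 7.44 and 6.66 against 16 and 19.3 CPM, with 6 of 7 tested genes higher. This sum was higher in most other classes too, as in the NMPs (11.5 and 11.6 against 18.5 and 20.4 CPM). Over all cells it was 48.3 and 51.3 against 131 and 138 CPM. The sum of 6 amnion and extraembryonic mesoderm genes was 9.65 and 9.86 against 18.5 and 17.1 CPM, with 2 of 3 tested genes higher. Their part in the results was not tested. Nog stood at 8.54 and 12.6 CPM in the WT and at 21.3 and 19.8 CPM in the Grhl3-null libraries, without overlap (log2 fold change 0.94, SE 0.12, adjusted p = 1.8e-05). Id3 stood at 349 and 375 against 567 and 577 CPM (0.64, SE 0.04, adjusted p = 9.2e-10). Grem1 rose from 2.83 ± 0.817 to 5.84 ± 0.305 CPM (1.02, SE 0.18), Fst from 18.9 ± 2.40 to 27.1 ± 0.129 CPM (0.50, SE 0.08) and Id1 from 124 ± 1.19 to 142 ± 0.874 CPM (0.17, SE 0.04). Bmp5 rose from 1.27 to 2.88 CPM (1.15, SE 0.24) and Bmp2 from 0.566 to 1.49 CPM (1.37, SE 0.33), low levels that rest on few UMIs. Bmp4 (0.75, adjusted p = 0.073), Bmp7 (0.09, adjusted p = 0.79) and Chrd (-0.98, adjusted p = 0.19) were not called. The direction in female and male cells differed between members. Nog was higher in Grhl3-null among female cells (7.69 and 12.4 against 26.7 and 27.5 CPM) and among male cells (16 and 16 against 20.6 and 21.2 CPM, adjusted p = 0.034), and so was Id3 (323 and 348 against 649 and 612 CPM in female, 502 and 469 against 576 and 587 CPM in male cells). Fst was higher among male cells (18.1 and 15.7 against 28.3 and 29.7 CPM) but not among female cells (15.0 and 20.6 against 13.0 and 11.4 CPM), and Id1 was higher among female cells (117 and 113 against 161 and 193 CPM) but not among male cells (161 and 161 against 142 and 132 CPM). Grem1 gave 1.75 in male and 0.23 in female cells (adjusted p = 0.72 in female cells). Bmp5 gave 1.98 in male and 0.78 in female cells (adjusted p = 0.32 in female cells). Bmp2 gave 0.88 in male cells (adjusted p = 0.37) and has no value in female cells. The calls changed with the clustering. With clusters at resolution 0.8 the neuroepithelium held 1440 cells instead of 2160, while a cluster of 372 cells led by Gadd45a, Pax3, Foxd3, Tfap2b and Wnt1 stayed unnamed. The genes called fell from 2940 to 482, and none of the 7 was then called: Nog gave 0.44, Id3 0.07, Fst 0.06, Bmp5 0.04, Bmp2 0.39, Grem1 1.31 and Id1 -0.08. Bmp2 was also lost without WT replicate 1 (1.07), and Bmp2 and Bmp5 were lost with DESeq2.

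In the class of surface ectoderm and border cells, where WT Grhl3 was highest (33.3 and 26.5 CPM), Nog stood at 3.39 and 3.43 CPM in the WT and 8.92 and 9.84 CPM in the Grhl3-null libraries (log2 fold change 1.41, SE 0.17, adjusted p = 1.3e-05). Among female cells the values were 2.55 and 3.15 against 13.9 and 13.6 CPM, and among male cells 2.70 and 3.68 against 4.87 and 5.6 CPM, where the difference did not pass (adjusted p = 0.23). Bmp2 stood at 29.6 and 31.2 against 37.9 and 41.7 CPM (0.34, SE 0.08, adjusted p = 0.0054), yet female cells gave 0.03 and male cells 0.11, neither called. Male cells had the higher Bmp2 level in WT (46.9 and 44.5 CPM, against 23.6 and 29.7 CPM in female cells), and they made up 24.3% and 28.7% of the sexed WT cells against 53.4% and 51.7% of the sexed Grhl3-null cells. Bmp5 stood at 14.4 and 15.2 against 18.6 and 20.5 CPM (0.36, SE 0.11, adjusted p = 0.028), with 0.78 in female and -0.41 in male cells. Id1 stood at 329 and 345 against 393 and 392 CPM (0.18, SE 0.05, adjusted p = 0.010), with 0.46 in female and -0.26 in male cells. Control lists differed here too. The 7 haemoglobin genes summed to 271 and 26.6 CPM in the WT and 31.3 and 34 CPM in the Grhl3-null libraries, so WT replicate 1 stood apart. The 8 visceral endoderm genes summed to 3.17 and 3.59 against 12.6 and 11.8 CPM, with all 4 tested genes higher. The 14 dissociation-induced genes summed to 255 and 242 against 209 and 215 CPM, with 1 higher and 6 lower of 12 tested. Their part in the results was not tested. Id3 (-0.03), Bmp7 (-0.17, adjusted p = 0.096) and Bmp4 (0.29, adjusted p = 0.067) were not called. Without Grhl3-null replicate 2 the calls of Bmp2 (0.29) and Bmp5 (0.29) were lost. Without WT replicate 1 those of Bmp5 (0.32) and Id1 (0.15) were lost, and without WT replicate 2 that of Bmp5 (0.40). With DESeq2 those of Bmp2 and Bmp5 were lost.

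Fst, which binds activin and Bmps, was lower in 6 classes of the Grhl3-null pool, the NMPs, 4 mesodermal classes and the gut. In the NMPs it stood at 62.0 and 69.9 CPM in the WT and 19.7 and 18.8 CPM in the Grhl3-null libraries, a fall by 1.79 on the log2 scale (SE 0.06, adjusted p = 8.5e-09). The fall was in female cells, at 83.5 and 91.0 against 14.1 and 14.6 CPM, and not in male cells, at 21.3 and 25.5 against 23.3 and 21.0 CPM. The WT female cells were thus set apart from the other 3 groups of cells. In the Prrx1 lateral plate class it decreased by 1.2 (SE 0.08), from 18.9 ± 0.601 to 8.11 ± 1.13 CPM, again in female cells (27.4 and 25.7 against 5.33 and 5.70 CPM) and not in male cells (8.04 and 6 against 8.39 and 9.04 CPM). With clusters built without pathway genes this fall was -0.28 and not called. In the somitic mesoderm Fst stood at 75.0 and 77.1 against 43.8 and 50.8 CPM (-0.69, SE 0.05, adjusted p = 1.1e-06), lower among female (95.9 and 100 against 43.3 and 50.7 CPM) and among male cells (52.7 and 59.3 against 42.4 and 43.3 CPM, adjusted p = 0.011), and it passed in every alternative tried. Smaller falls were called in the paraxial mesoderm (-0.31, SE 0.05), the intermediate mesoderm (-0.52, SE 0.08, and -0.44 without WT replicate 2, not called) and the gut (-0.65, SE 0.15, and -0.54 without WT replicate 1, not called). Each of these passed in female cells (-1.32, -0.94 and -0.82 in the order given) and not in male cells (-0.07, -0.13 and 0.87). In the gut the signs were thus opposite, and the difference between male and female cells was itself called (1.70, SE 0.40, adjusted p = 0.0066). With DESeq2 the falls in the paraxial mesoderm and the gut were not called. The rise in the neuroepithelium differed from each of the 6 falls by 0.81 to 2.30 on the log2 scale. These pairs were tested because their calls had opposite signs in the same data, so a pass was largely fixed beforehand. The differences were not split by sex, and Fst in the neuroepithelium gave 0.85 in male and -0.56 in female cells. The pre-somitic class, seen almost only in the WT pool, was itself nearly all female, with 483 and 472 female and 0 and 1 male WT cells.

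The Id genes rose in several classes and fell in the notochord. In the paraxial mesoderm Id1 stood at 86.6 and 94.2 against 123 and 119 CPM (0.39, SE 0.04, adjusted p = 4.9e-06), which passed in every alternative, and Id3 at 198 and 218 against 246 and 245 CPM (0.21, SE 0.04). Both passed in male and in female cells, Id1 at 54.7 and 67.4 against 121 and 111 CPM in male and 78.1 and 87.3 against 96.4 and 94.9 CPM in female cells. Id1 also rose in the intermediate mesoderm (0.44, SE 0.07), the somitic mesoderm (0.36, SE 0.04) and the gut (0.26, SE 0.06, lost with DESeq2). None of these rises of Id1 passed in male cells, with -0.42 in the gut (adjusted p = 0.0054), -0.35 in the intermediate mesoderm and 0.17 in the somitic mesoderm (adjusted p = 0.10), against 0.90, 0.87 and 0.58 in female cells. Id3 also rose in Mesenchyme 2 (339 ± 6.09 to 472 ± 34.8 CPM, 0.48, SE 0.04), the shallow lateral plate class (0.31, SE 0.07), the intermediate mesoderm (0.25, SE 0.05) and the Tbx4 lateral plate class (0.20, SE 0.06, adjusted p = 0.0498). In male cells Id3 was lower in Mesenchyme 2 (-0.19, adjusted p = 0.038), against 0.94 in female cells, and gave -0.17 in the intermediate mesoderm and -0.045 in the Tbx4 class, neither called, against 0.46 and 0.40 in female cells. With clusters at resolution 0.8 the calls of Id3 in Mesenchyme 2 (0.28) and the intermediate mesoderm (0.14) were lost. In the notochord Id3 stood at 444 and 350 against 308 and 307 CPM (-0.37, SE 0.09, adjusted p = 0.019), a call that was lost with DESeq2, without WT replicate 1 (-0.19) and without either Grhl3-null library (-0.39 and -0.34), and that came to 0.044 in male and -0.93 in female cells. Its effect there differed from that in each of the 6 classes with a rise, by 0.58 to 1.00 on the log2 scale. These pairs were picked for their opposite calls in the same data and were not split by sex. The rises of Id3 in the intermediate, Tbx4 and shallow lateral plate classes were lost without WT replicate 1 (0.27, 0.14 and 0.30), as was that in the paraxial mesoderm (0.14). Without WT replicate 2 those in the intermediate mesoderm (0.24) and shallow class (0.31) were lost, and without each Grhl3-null library that in the Tbx4 class (0.20 and 0.21). With DESeq2 those in the shallow and Tbx4 classes were lost. Id1 in the intermediate mesoderm was lost without WT replicate 1 (0.50) and 2 (0.39). Dissociation-induced genes, summed over the 14 of the list, were also lower in the Grhl3-null notochord (406 and 369 against 273 and 285 CPM), and their part in the result was not tested.

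Ligands rose in Mesenchyme 2 and the Prrx1 lateral plate class. In Mesenchyme 2, led by Col3a1, Nkx2-3 and Acta2, Bmp5 stood at 14.4 and 14.6 CPM in the WT and 30 and 33.4 CPM in the Grhl3-null libraries (1.13, SE 0.08, adjusted p = 4.7e-08). Among female cells the values were 7.58 and 10.0 against 31.9 and 35.9 CPM, and among male cells 43.5 and 33.0 against 28.0 and 32.9 CPM, so the WT female cells stood apart and the WT male cells were not below the null cells. The summed level of 6 amnion and extraembryonic mesoderm genes also differed in this class, at 243 and 244 against 325 and 313 CPM, and its part in the result was not tested. Bmp2 (6.60 ± 0.283 to 9.89 ± 0.700 CPM, 0.58, SE 0.14) and Nog (0.83, SE 0.22) rose there too. Bmp2 gave -0.68 in male and 1.31 in female cells, and Nog gave 0.02 in male and 1.25 in female cells. Both calls were lost with DESeq2 and without WT replicate 2 (0.54 and 0.53), and that of Nog also without Grhl3-null replicate 2 (0.66). With clusters at resolution 0.8, where 26 genes were called in this class instead of 2590, no member call there passed: Bmp5 gave 0.26, Bmp2 0.36, Id3 0.28 and Nog -0.37. In the Prrx1 lateral plate class Bmp2 (0.63, SE 0.12), Bmp5 (0.61, SE 0.10), Bmp7 (0.45, SE 0.09) and Bmp4 (0.19, SE 0.05, adjusted p = 0.024) all rose. Bmp5 was higher in male cells (1.61) and not in female cells (-0.10, difference 1.71, adjusted p = 3.8e-06), and Bmp4 in female cells (0.40) and not in male cells (-0.08). Bmp2 and Bmp7 passed in male and in female cells, Bmp2 at 1.99 and 3.36 against 4.84 and 5.31 CPM in male cells and 4.42 and 5.13 against 6.89 and 7.55 CPM in female cells. Bmp7 stood at 7.37 and 7.30 against 10.3 and 9.52 CPM in the class as a whole. All 4 calls there were lost with clusters built without pathway genes, a class of 2217 cells instead of 3163. The values of Bmp2, Bmp5, Bmp7 and Bmp4 were then 0.34, 0.34, 0.24 and 0.00. That of Bmp4 was also lost without WT replicate 1 (0.13) and Grhl3-null replicate 2 (0.18). With DESeq2 the calls of Bmp2, Bmp7 and Bmp4 were lost.

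The only ligand to fall was Bmp4 in the gut, at 24.4 and 23.9 CPM in the WT and 15.8 and 16.8 CPM in the Grhl3-null libraries (-0.60, SE 0.08, adjusted p = 3.8e-05). It was lower in male cells (20.1 and 27.4 against 14.7 and 12.4 CPM) and did not pass in female cells (26.9 and 23.1 against 18.3 and 23.5 CPM, adjusted p = 0.28). The effect differed from that in the Prrx1 lateral plate class by 0.80 (SE 0.10), a pair picked for its opposite calls in the same data. Visceral endoderm genes, 8 such as Afp and Ttr, summed to 645 and 745 CPM in the WT gut and to 1494 and 1480 CPM in the Grhl3-null gut, and their part in the result was not tested. In the NMPs Bmp2 (0.618 to 1.15 CPM), Bmp5 (2.45 to 3.73 CPM) and Grem1 (0.550 to 1.58 CPM) were called higher at low levels, and each was lost without at least 1 library. Bmp2 was lost without any 1 of the 4 (0.67 to 1.10), and Grem1 without WT replicate 2 (1.00). Bmp5 was lost without WT replicate 1 (0.49), WT replicate 2 (0.67) or Grhl3-null replicate 2 (0.34). With DESeq2 Bmp5 was lost, and Bmp2 and Grem1 had no adjusted p. In female cells Bmp2, Bmp5 and Grem1 gave 0.25, 0.46 and 1.31, none called. In male cells only Bmp5 could be fitted (0.87, not called).

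Grem1 was called higher in 5 classes, among them the somitic (5.19 ± 1.46 to 8.26 ± 1.84 CPM, 0.69, SE 0.18) and paraxial mesoderm (9.75 ± 2.70 to 13.5 ± 0.472 CPM, 0.45, SE 0.12). The somitic call was lost without WT replicate 2 (0.41) and Grhl3-null replicate 1 (0.43), and the paraxial call without WT replicate 1 (0.18). Both were also lost with DESeq2, and the somitic call at resolution 0.8 and with a mitochondrial limit of 5%. Among female cells Grem1 passed in both classes (1.35 and 0.94), and among male cells in neither (0.25 and 0.81). In the intermediate mesoderm, where it is highest, it was not called (104 and 102 against 117 and 101 CPM, 0.11, SE 0.08, adjusted p = 0.59), while female cells (87.6 and 81.3 against 264 and 144 CPM) and male cells (204 and 206 against 115 and 95.8 CPM) moved in opposite directions. Only 15 to 83 cells stand behind each of these values. The call in the notochord (1.69 to 13.3 CPM) rests on 2 and 9 UMIs in 1 cell each of the WT libraries and on 38 and 17 UMIs in 7 and 5 cells of the Grhl3-null libraries, and was lost without Grhl3-null replicate 1 (1.94). Chrd was called in no class, and Nog and Chrd did not pass in the notochord, where they are highest (171 ± 17.1 to 181 ± 36.4 CPM and 38.2 ± 7.42 to 36.1 ± 5.13 CPM, with log2 fold changes of 0.09, SE 0.11, and -0.05, SE 0.17).

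**Figure D3:**
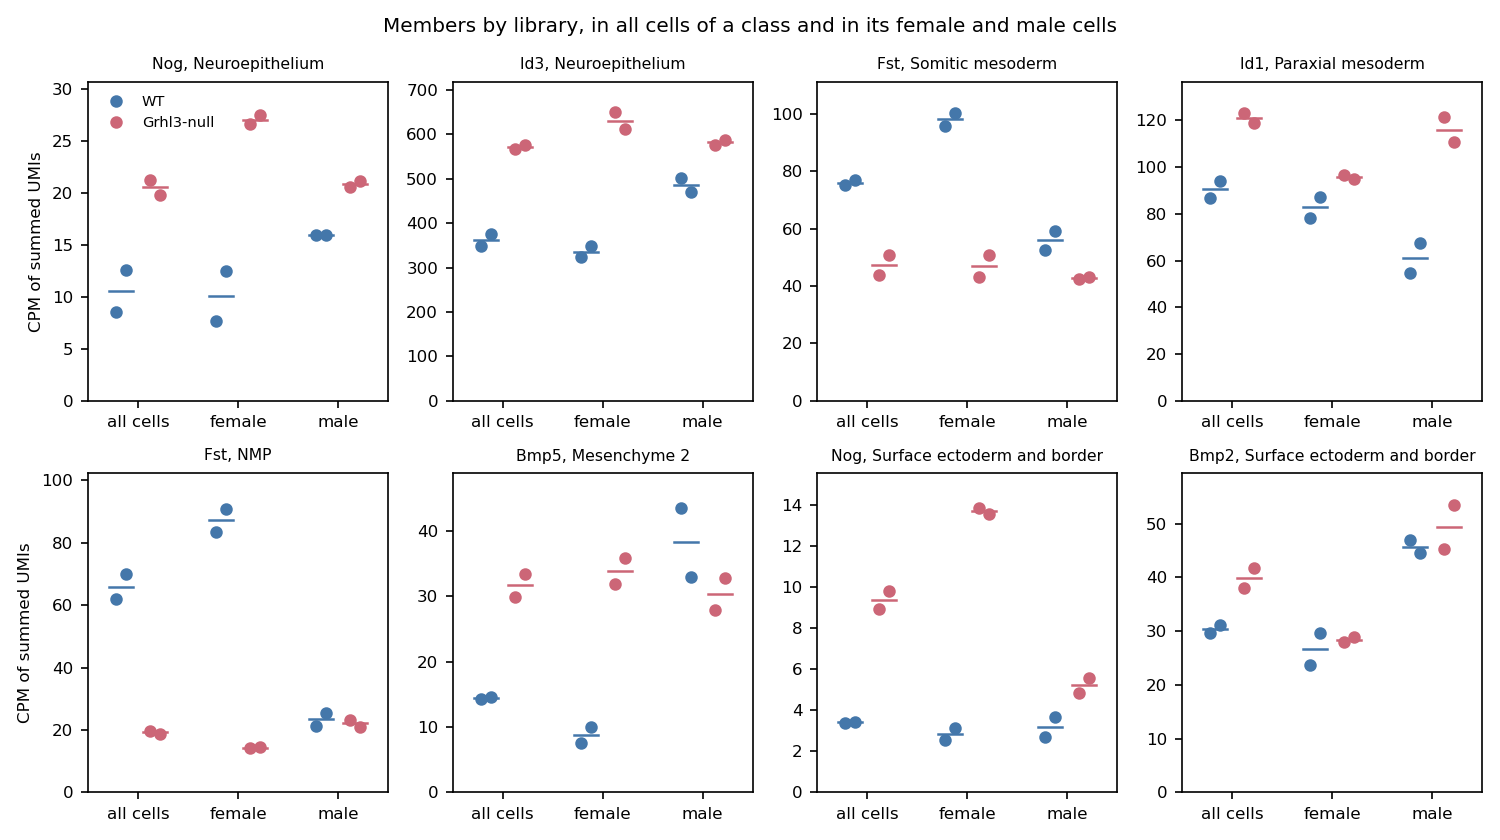
CPM of summed UMIs in each library (points, with their mean as a line) for all cells of a class and for its female and male cells, in 8 member and class pairs. In the top row the 2 genotypes are apart in the same direction in female and male cells, whereas Fst in the NMPs and Bmp5 in Mesenchyme 2 are apart in female cells only.

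The sex split bore on most calls. Of the 41 called pairs, 37 could be fitted in male cells and 38 in female cells. In male cells 23 kept their direction and 12 were called, and in female cells 36 kept their direction and 29 were called. Over all genes of the neuroepithelium, 2115 of 11873 were called in male cells and 2748 of 11481 in female cells. The gap was wider in other classes, as in the NMPs with 371 of 11828 and 2851 of 12714. Only the gut went the other way, with 1691 of 11965 in male and 920 of 11889 in female cells. Fewer calls in male cells were thus no trait particular to the members. The 7 pairs called in the same direction in both were Nog and Id3 in the neuroepithelium, Id1 and Id3 in the paraxial mesoderm, Fst in the somitic mesoderm, and Bmp2 and Bmp7 in the Prrx1 lateral plate class. The genotype effect itself differed between male and female cells in 47 of 100 pairs tested, and 35 of those had opposite signs. The share of all genes that differed in this way was not computed, so these counts describe no trait particular to the members. Every class had both sexes in both genotypes, but the male and female cells may come from as few as 1 embryo each.

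Of 43 other genes of the pathway, 37 were tested in all cells, and 14 were higher and 2 lower in Grhl3-null, where 35.5% of all tested genes were called. By class the counts were 8 higher and 4 lower of 24 tested in the neuroepithelium (22.8% of all genes), 7 and 2 of 28 in Mesenchyme 2 (20.9%), 7 and 1 of 29 in the Prrx1 lateral plate class (10.5%), 6 and 1 of 29 in the gut (19.5%), 6 and 0 of 26 in the NMPs (17.7%), 6 and 0 of 26 in the somitic mesoderm (12.3%) and 5 and 2 of 28 in the paraxial mesoderm (21.7%). The surface ectoderm class had 4 higher and 2 lower of 31 (15.3%), the notochord 3 and 1 of 21 (3.52%), the intermediate mesoderm 2 and 1 of 21 (2.87%), the Tbx4 lateral plate class 1 and 0 of 21 (3.32%), the shallow lateral plate class 1 and 0 of 18 (4.2%), the endothelium 0 and 1 of 23 (0.67%), and the erythroid class 0 of 14 by edgeR (0.443%). With at least 10 CPM and a change of at least 1 on the log2 scale, the genes were Id4 in the intermediate mesoderm (34 to 14.7 CPM, -1.17, SE 0.15), a further Id gene, and Dand5 in the notochord (34.5 to 14.3 CPM, -1.25, SE 0.22), a secreted antagonist best known for left-right patterning. Named after its values were seen, Id2 was higher in 9 classes, as in the paraxial mesoderm (99.3 to 155 CPM, 0.62, SE 0.04), and lower in the neuroepithelium (253 to 204 CPM, -0.33, SE 0.04), the class in which Id1 and Id3 were higher. For Id4, Dand5 and Id2 no values by sex or without single libraries are given here. In the intermediate mesoderm, male cells made up 15.3% and 20.2% of the sexed WT cells and 78.4% and 74.7% of the Grhl3-null ones.

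The dorsal and ventral neuroepithelium were compared within libraries, with dorsal cells defined by a UMI of Pax3 and none of Nkx6-1, and ventral cells by the reverse. The dorsal subset had 155 and 126 WT cells and 218 and 232 Grhl3-null cells, the ventral subset 196 and 177 WT and 246 and 295 Grhl3-null cells. Both were taken from the class at resolution 0.4, and the comparison was not repeated at resolution 0.8. How many dorsal cells fell in the unnamed cluster seen there, led by Gadd45a, Pax3 and Foxd3 among others, was not computed. Of the 9 members tested, 8 were called and all 8 were higher dorsally, where 14.3% of all genes were called. Grem1 stood at 10.3 ± 3.23 CPM dorsally and 0.569 ± 0.500 ventrally (SD, n = 4 libraries, log2 difference 4.07, SE 0.26), Bmp5 at 4.86 ± 2.19 and 0.303 ± 0.0612 CPM (3.97, SE 0.30) and Nog at 36.1 ± 12.1 and 3.5 ± 0.850 CPM (3.36, SE 0.11). Bmp7 (1.37, SE 0.22), Fst (1.12, SE 0.09), Id3 (0.73, SE 0.06) and Id1 (0.54, SE 0.04) were higher dorsally in all 4 libraries. Bmp2 was called as well (1.67, SE 0.39, adjusted p = 0.0080), at 0.469 and 1.03 CPM against 0.357 and 0.695 in the WT and 2.48 and 2.65 CPM against 0.525 and 0.573 in the Grhl3-null libraries, and with DESeq2 it was not (adjusted p = 0.515). Bmp4 did not pass (1.23, adjusted p = 0.053), and Chrd, with at most 0.973 CPM in either subset, was too low to test. Its mean was 0.359 CPM dorsally and 0.643 CPM ventrally.

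Within dorsal cells, not split by sex, the genotypes were also apart. Nog stood at 19.7 and 34.4 CPM in the WT and 45.4 and 45 CPM in the Grhl3-null libraries, and in ventral cells at 2.26 and 3.75 against 3.78 and 4.20 CPM. Id3 stood at 507 and 512 against 787 and 776 CPM dorsally and at 323 and 377 against 396 and 441 CPM ventrally, and Id1 at 149 and 168 against 179 and 178 CPM dorsally and 116 and 112 against 117 and 116 CPM ventrally. Grem1 stood at 8.90 and 6.71 against 14.2 and 11.5 CPM dorsally. For all 4 the dorsal values of the genotypes did not overlap, and no test was run on this split. Male cells made up 11.7% and 15.5% of the sexed WT cells of the neuroepithelium and 85.8% and 87.1% of the Grhl3-null ones. In that whole class Id1 gave -0.18 in male and 0.59 in female cells, so sex and genotype cannot be told apart in these dorsal values.

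**Figure D4:**
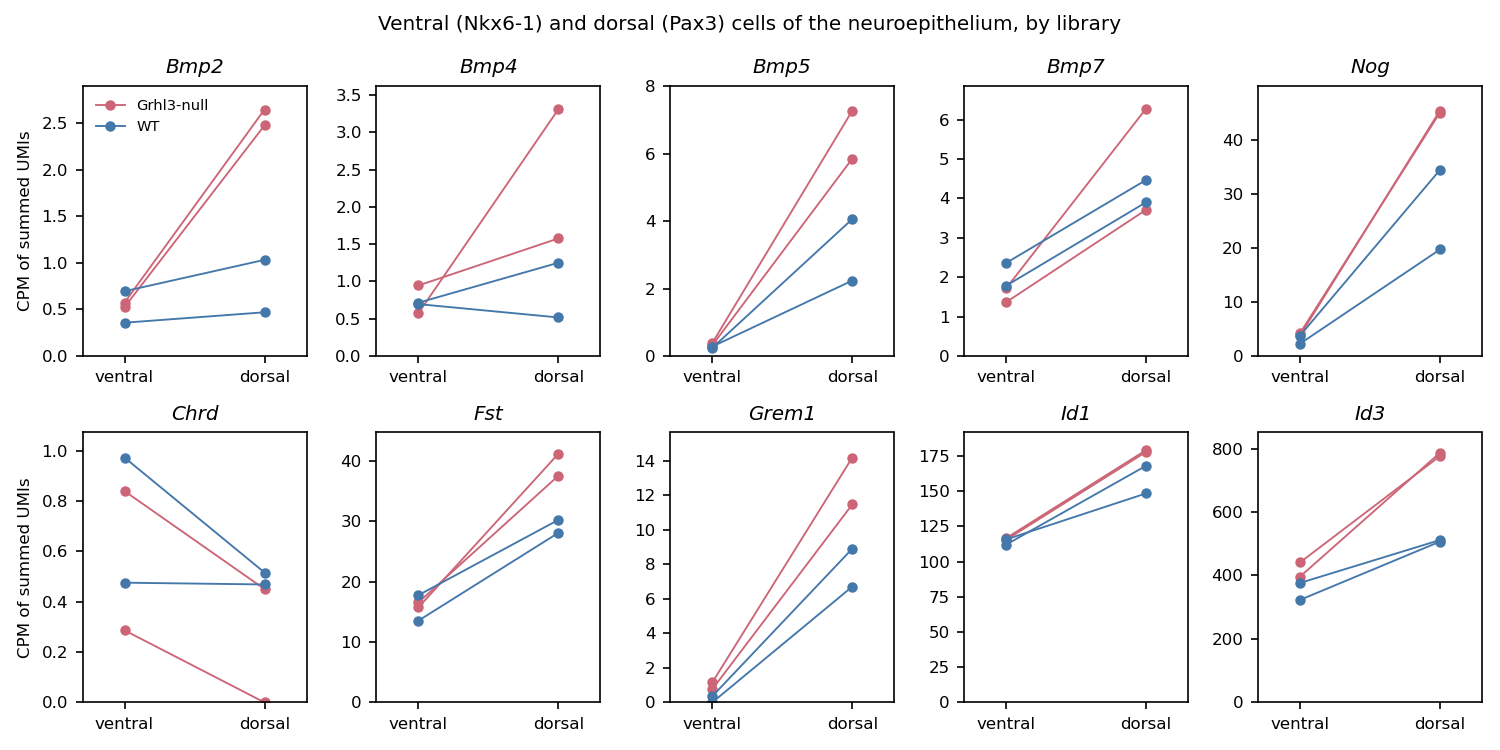
CPM of summed UMIs in ventral and dorsal neuroepithelium, with a line per library, 1 panel per member. Every line of Bmp2, Bmp5, Bmp7, Nog, Fst, Grem1, Id1 and Id3 rises from ventral to dorsal, and the dorsal points of Nog and Id3 are higher in the Grhl3-null libraries.

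At the neural plate border, taken as cells of the surface ectoderm class with a UMI of Tfap2c, 4 of 8 members tested were called against the other cells of the class, where 7.49% of all genes were called. There were 150 and 134 WT and 119 and 127 Grhl3-null border cells, against 97 and 82 WT and 155 and 131 Grhl3-null other cells. Bmp2 was higher at the border in all 4 libraries, at 36.5 and 37.8 CPM against 10.8 and 12.3 CPM in WT and 47.0 and 52.9 CPM against 28.4 and 26.1 CPM in Grhl3-null (log2 difference 1.13, SE 0.13, adjusted p = 6.0e-05). Bmp5 was also higher, at 19.7 ± 3.54 against 12.1 ± 4.99 CPM (0.66, SE 0.15, adjusted p = 0.015). Id1 was lower at the border in all 4 libraries, at 326 ± 30.7 against 441 ± 13.2 CPM (-0.44, SE 0.04, adjusted p = 1.9e-05), and Bmp4 at 28.7 ± 5.81 against 36.6 ± 6.59 CPM (-0.34, SE 0.10, adjusted p = 0.045). Bmp7 (0.08), Id3 (-0.06), Nog (0.60, adjusted p = 0.15) and Fst (0.34) were not called. The calls of Bmp4 and Bmp5 were lost with DESeq2 and without WT replicate 1 (-0.35 and 0.66). That of Bmp4 was also lost without WT replicate 2 (-0.22) and Grhl3-null replicate 1 (-0.34), and that of Bmp5 without Grhl3-null replicate 2 (0.65, adjusted p = 0.0503), while Bmp2 and Id1 passed in every alternative. In the WT libraries alone, a setting added after the data were seen, Bmp2 differed by 1.70 and in the Grhl3-null libraries alone by 0.86, and these were not tested against each other.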

How the data were processed

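Caudal tissue was dissociated with trypsin and run on 10x 3′ v3.1 chemistry. The authors made the deposited UMI counts per gene and cell with Cell Ranger on mm10, and this count matrix was used unchanged. Cells with at least 3000 genes, 7500 UMIs and at most 7% mitochondrial UMIs were kept, normalised with SCTransform (sctransform 0.4.2) and clustered in Seurat 5.3.0 (30 components, resolution 0.4). Classes were named from the marker lists of the study, which were chosen on these samples. No doublets were removed in the main analysis. UMIs were summed per class and library (at least 10 cells in each) and tested with edgeR 4.0.16 (quasi-likelihood, TMM, Benjamini-Hochberg over all genes tested in the class). The dorsal and border comparisons had the library as a term. On simulated counts, 200 of 200 genes with a log2 change of 2 were recovered in each of 3 sets, among 17161 genes (all cells, 5 false calls), 12929 (neuroepithelium, 11) and 12444 (surface ectoderm, 3). The changed genes were well counted and the spread between libraries was fixed. Smaller changes and changed genes with few UMIs were not simulated. Sex was read per cell: male needed 2 or more UMIs over 4 Y-linked genes with no more than 2 of Xist, female 3 or more of Xist with no more than 1 Y-linked UMI. The members and gene lists were chosen with earlier results of these data known. Other pathway genes were named with an adjusted p under 0.05, a log2 change of at least 1 and at least 10 CPM. Alternatives were DESeq2 1.42.0, other filters and clusterings, removal of doublets, single sexes and leaving out each library. Intervals cover counting error only.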

Additional observations from a re-analysis of the deposited data

Results flagged for a closer look

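The genotype effect (log2, Grhl3-null against WT) had opposite directions in some pairs of classes, and a test of the difference passed for each pair given here. Only pairs called in opposite directions in these data were tested, so a pass was largely fixed beforehand. The differences between classes were not split by sex. For Bmp4, the effect in the Prrx1 lateral plate class exceeded that in the gut by 0.80. For Fst, the effect in the neuroepithelium exceeded that in the gut by 1.16, in the intermediate mesoderm by 1.02, in the Prrx1 lateral plate class by 1.71, in the NMPs by 2.30, in the paraxial mesoderm by 0.81 and in the somitic mesoderm by 1.19. For Id3, the effect in the notochord was below that in the intermediate mesoderm by 0.64, the Tbx4 lateral plate class by 0.58, the shallow lateral plate class by 0.64, Mesenchyme 2 by 0.84, the neuroepithelium by 1.00 and the paraxial mesoderm by 0.58.

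The effect also differed between male and female cells, with each sex passing in its own direction. The male minus the female effect was -1.06 for Bmp4, 2.90 for Fst and -0.65 for Id1 in all cells. In Mesenchyme 2 it was -2.0 for Bmp2, -1.91 for Bmp7, 3.96 for Fst, 5.58 for Grem1, -0.90 for Id1 and -1.14 for Id3. There, 48.8% of the 260 Fst UMIs of Grhl3-null replicate 1 and 39.2% of the 176 of WT replicate 1 lay in 1 cell. Grem1 stood at 0.731 and 0 CPM in the WT male cells of that class, so its fitted difference depends on the prior count. In the intermediate mesoderm it was 5.23 for Bmp7 and -2.30 for Grem1, with Bmp7 at 0 and 2.49 CPM in the 15 and 19 WT male cells. In the gut it was -1.30 for Id1 and -0.999 for Id3, and in the surface ectoderm class it was -0.73 for Id1. Sex and embryo cannot be told apart.

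UMIs of LacZ, which no comparison used, numbered 13 and 22 in the Grhl3-null libraries and 0 in each WT library.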

How the results depend on the processing

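Calls of members by class, counted afresh in each fit, numbered 41 as reported, 20 with DESeq2, 24 in male cells and 29 to 43 without 1 library. Of the 41 pairs, 12 were called in the same direction in male cells. Calls of other pathway genes numbered 71 as reported, 26 with DESeq2, 43 in male cells and 45 to 64 without 1 library. The 8 calls over all cells became 6 to 9 without 1 library, and without the pre-somitic class, an alternative chosen after seeing the data, Bmp4 (0.08) and Bmp7 (0.10) were lost. The 4 border calls became 2 with DESeq2 and 2 to 3 without 1 library, and the 8 dorsal calls 7 to 9 without 1 library. With a replicate block the counts were 52 by class, 9 over all cells and 84 for pathway genes. Whether the numbers 1 and 2 pair the reactions is not given in the sources used here, and the deviations of same-numbered libraries correlated at -0.167 to 0.248 by class and at 0.256 over all cells.

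In male cells the sign changed for Id1 in all cells (-0.18), gut (-0.42), intermediate mesoderm (-0.35), neuroepithelium (-0.18) and surface ectoderm (-0.26), and for Id3 in intermediate mesoderm (-0.17), Tbx4 lateral plate (-0.045), Mesenchyme 2 (-0.19) and notochord (0.044). It also changed for Fst in all cells (0.74), gut (0.87) and Prrx1 lateral plate (0.31), for Bmp2 in Mesenchyme 2 (-0.68), for Bmp4 in all cells (-0.36) and Prrx1 lateral plate (-0.082), for Bmp5 in Mesenchyme 2 (-0.34) and surface ectoderm (-0.41), and for Bmp7 in all cells (-0.014). In female cells it changed for Fst in neuroepithelium (-0.56), Grem1 in all cells (-0.049) and Bmp5 in Prrx1 lateral plate (-0.10). At resolution 0.8 it changed for Id1 in neuroepithelium (-0.076) and Nog in Mesenchyme 2 (-0.37). The causes were not tested.

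As a mean over cells, Bmp2 in the endothelium was 45.6 CPM and Bmp7 in the surface ectoderm 58.7 CPM, and with clusters built without pathway genes Grem1 in the intermediate mesoderm was 90.7 CPM. Without thinning, shares of WT cells with a UMI were 45.2% for Bmp2, 71.8% for Bmp4, 37.1% for Bmp5, 85.4% for Bmp7, 86.6% for Nog, 61.9% for Chrd, 86.6% for Fst, 66.9% for Grem1, 94.1% for Id1 and 98.4% for Id3, each in its highest class. Depth limits the low genes: Chrd was too low to test in the dorsal and border comparisons.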
